A study of Mus musculus with 18 samples.

Results

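The 36 genes described here encode proteins of the lysosome and of autophagy. They were chosen by name, for their known roles, with earlier results of these data known. By role they form 6 lysosomal membrane proteins, 9 hydrolases and soluble cofactors, 10 cathepsins, 10 autophagy genes and 1 regulator, the transcription factor TFEB. All 36 were among the 21937 genes of the table, with Tfeb under its older symbol Tcfeb. Of these, 32 passed a filter (a mean of 10 or more normalized reads, which are reads of a gene divided by 1 factor per library) and were tested, among 12393 tested genes in all. The 4 left out were the cathepsins Ctsf, Ctsh, Ctsk and Ctss.

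RNA was sequenced from NIH3T3 cells, an established line of mouse embryo fibroblasts. Every library came from cells that had been exposed to 100 nM dexamethasone for 2 h, and the return to normal medium set 0 h. Dexamethasone is a synthetic glucocorticoid that aligns the circadian clocks of cultured cells. Cells were taken every 4 h up to 32 h, which gave 9 time points with 2 libraries each, named replicate 1 (R1) and replicate 2 (R2). The 0 h libraries are therefore cells at the end of the pulse, and untreated cells were not analysed here. The labels do not say that the replicates were separate cultures, so the p-values measure only the spread between these libraries, which may be technical.

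Lysosomes are acidic organelles that break down proteins, glycans and lipids. Their acid hydrolases, with the cathepsins as the proteases among them, reach the organelle mostly through mannose 6-phosphate receptors, and a shell of heavily glycosylated membrane proteins such as LAMP1 and LAMP2 lines the inside of its membrane. Autophagy delivers cytoplasm to the lysosome: the ULK kinases start a double membrane, the Beclin 1 lipid kinase complex and WIPI proteins extend it, the ATG5 and ATG7 conjugation machinery attaches LC3 and GABARAP proteins to it, and receptors such as p62 (Sqstm1) load cargo. TFEB and its relatives TFE3 and MITF bind a palindromic element in the promoters of many of these genes, known as the CLEAR element, and are held in the cytoplasm by mTORC1 when nutrients are plentiful.

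The core of that element, TCACGTG, was looked for in promoters because the element is known from many lysosomal genes. A higher share among the members than among all genes was therefore foreseen, and is no result of these data. RefSeq promoters on GRCm38.p6, each 300 bases long from 250 before to 50 after a gene start, were searched on both strands. Of the 36 members, 30 had a promoter in the table; Npc1, Ctsb, Ctsh, Ctsw, Map1lc3a and Becn1 did not. TCACGTG was in the promoters of 9 of the 30 (30%), beside 4.29% of 27025 genes and 3.77% of 32851 promoters. By role these 9 were the membrane proteins Cln3, Lamp1 and Mcoln1, the hydrolases Gla, Glb1 and Naglu, the cathepsins Ctsa and Ctsd, and the autophagy gene Atg7. That is 8 of 21 lysosomal members (38.1%) and 1 of 8 autophagy genes (12.5%), while the promoter of Tfeb held none. The shorter CACGTG, which every TCACGTG contains, was in 12 of 30 (40%), beside 8.09% of genes, with Atg5, Ctsf and Ctsl added to the 9. TCATGTG, a 7-base variant that differs at 1 base, was in 5 of 30 (16.7%), beside 4.31% of genes. These matches describe letters in a window, not bound sites. The stretches below show, for 8 members, the last TCACGTG before the gene start in capitals, 5′ to 3′ on the strand of the gene.
Cln3 (chr7:126583335-126583375, minus strand, site 122 bases before the start): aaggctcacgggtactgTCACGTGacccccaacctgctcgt
Mcoln1 (chr8:3500456-3500496, plus strand, 46 bases before): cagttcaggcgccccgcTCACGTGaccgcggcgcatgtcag
Naglu (chr11:101070003-101070043, plus strand, 74 bases before): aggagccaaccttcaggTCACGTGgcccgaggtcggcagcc
Glb1 (chr9:114401012-114401052, plus strand, 49 bases before): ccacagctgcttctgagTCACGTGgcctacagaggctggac
Gla (chrX:134601177-134601217, minus strand, 195 bases before): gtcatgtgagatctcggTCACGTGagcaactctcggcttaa
Ctsa (chr2:164833743-164833783, plus strand, 13 bases before): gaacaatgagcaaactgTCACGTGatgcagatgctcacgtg
Ctsd (chr7:142387903-142387943, minus strand, 99 bases before): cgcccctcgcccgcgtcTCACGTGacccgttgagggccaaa
Atg7 (chr6:114670946-114670986, plus strand, 133 bases before): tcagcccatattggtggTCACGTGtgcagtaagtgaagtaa

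Lamp1 held the most copies, 4 in all, 2 read as TCACGTG and 2 as its reverse complement CACGTGA. A 70-base stretch on the plus strand shows all 4 in capitals. Cln3, Ctsa, Ctsd, Gla and Mcoln1 held 2 copies each, and the second copy of Ctsa closes the stretch printed above in lower case.
Lamp1 (chr8:13159091-13159160): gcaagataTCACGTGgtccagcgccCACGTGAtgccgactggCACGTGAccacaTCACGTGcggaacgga

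Depth, as reads counted in genes, was 31.9 to 38.9 M for the replicate 1 libraries and 25.4 to 32.0 M for those of replicate 2. The normalized totals were 34.9 to 35.1 M at 0 h and 30.0 to 30.4 M at 32 h. Scaling every library to the same total therefore moved the median log2 change of all tested genes upward. Against 0 h this shift was 0.14 for 8 h, 0.19 for 16 h, 0.20 for 24 h and 0.21 for 32 h. Directions below are relative to the deposited scaling, and both other scalings (equal totals and quantile normalization) are given where they turn or end them. The fibroblast label was checked against 9 markers, all present in every library, with a summed level, in 1000 normalized reads, of 1158 to 1230 at 0 h and 877 to 935 at 32 h. Of 10 macrophage markers, Tyrobp was at 0 in every library and Ptprc, carried by all leukocytes, at 0 to 4.87. The highest were Cd68, at 154 to 273, Csf1r, at 86.4 to 149, and Cd14, at 77.85 to 131, each present in every library. The sum of the 10 was 409 to 551. The 5 osteoclast markers summed to 7.78 to 22.0, with Calcr at 0 throughout. The 4 endothelial markers summed to 37.4 to 101, with Kdr at 0 throughout and Cdh5, at 16.7 to 69.0, and Pecam1, at 15.8 to 30.1, present in every library. In bulk RNA, fewer cells of a type and less RNA per cell cannot be told apart.

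Levels per kilobase were taken over the union of the exons of all coding transcripts of a gene. This length was 6.17 kb for Ctsl and 2.74 kb for Psap. The order below depends on it, and other lengths were not tried. By this measure Psap ranked first, with a mean of 8772 normalized reads per kb over the 18 libraries. Ctsd followed with 6761 and Lamp1 with 6399. Sqstm1, at 3705, was the highest autophagy gene, and Ctsl, at 3565, the second cathepsin. The ranges of Ctsd (6199 to 7738) and Lamp1 (5872 to 6919) overlapped, as did those of Sqstm1 (3176 to 4646) and Ctsl (3125 to 4141), while the lowest library of Psap (8022) lay above the highest of Ctsd. At the other end, Tfeb had 34.5 per kb, the lowest of the tested members, below Ctsw with 75.9. The mean levels of the 4 untested cathepsins were at most 6.04 per kb, with single libraries of up to 15.95 for Ctsf and 11.5 for Ctsk.

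In 7 members a difference between 2 times was called in every alternative run: Ctsw and Sqstm1 fell, Ulk1 and Atg5 rose, Npc1 was higher at 8 h, Ctsa was lower at 8 h and Scarb2 was lower at 4 h. The share of all tested genes that kept a call in every alternative was not counted. This holds for the F test and the drift below too, so these counts cannot be set beside a share. Ctsw, a protease gene, went from 172 ± 72.9 (SD, n = 2) normalized reads at 0 h to 22.1 ± 14.0 at 32 h, and Sqstm1, which encodes an autophagy receptor, from 12076 ± 764 at 0 h to 9084 ± 169 at 16 h. Ulk1, the kinase gene that starts autophagy, went from 1522 ± 37.6 at 0 h to 1887 ± 71.0 at 32 h, and Atg5, of the conjugation machinery, from 578 ± 12.2 at 0 h to 809 ± 36.7 at 16 h. Npc1, a lysosomal cholesterol transporter, was at 683 ± 20.0 at 0 h and 861 ± 31.5 at 8 h, and Ctsa, a carboxypeptidase, at 4049.9 ± 220.0 at 0 h and 3262 ± 19.6 at 8 h. Scarb2, a lysosomal membrane protein, was at 978 ± 13.4 at 0 h and 785 ± 7.59 at 4 h.

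The ratio of the highest to the lowest time mean had a median of 1.26 over the 32 tested members and of 1.37 over all tested genes. It reached 1.5 in 3 members (9.38%), namely Ctsw (11.3), Map1lc3a (1.68) and Tfeb (1.60), and in 36.6% of all tested genes. The lowest time mean fell at 4 h in 11 members, among them Scarb2, Gla, Glb1, Gusb, Ulk1 and Tfeb, and at 8 h in 7, among them Lamp1, Lamp2, Ctsa and Ctsb. For all tested genes these times held the lowest mean of 18.5% and 10.1%. In a moderated F test over the 9 times, 20 of the 32 members (62.5%) were called, meaning an adjusted p under 0.05, beside 52.0% of all tested genes. By role, the calls were 4 of 6 membrane proteins, 7 of 9 hydrolases and cofactors, 3 of 6 cathepsins, 5 of 10 autophagy genes and Tfeb. Without 0 h R1 the count was 13, and without 0 h R2 it was 12. Scarb2, Npc1, Naglu, Tpp1, Ctsa, Ctsw, Sqstm1 and Ulk1 kept the call in all 28 alternatives run. Single libraries also brought calls: the F test passed without 8 h R2 for Lamp2, without 8 h R1 or 12 h R2 for Glb1, without either 12 h library for Ctsz, without 12 h R1 for Gabarapl1 and without 4 h R2 for Atg7.

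**Figure D1:**
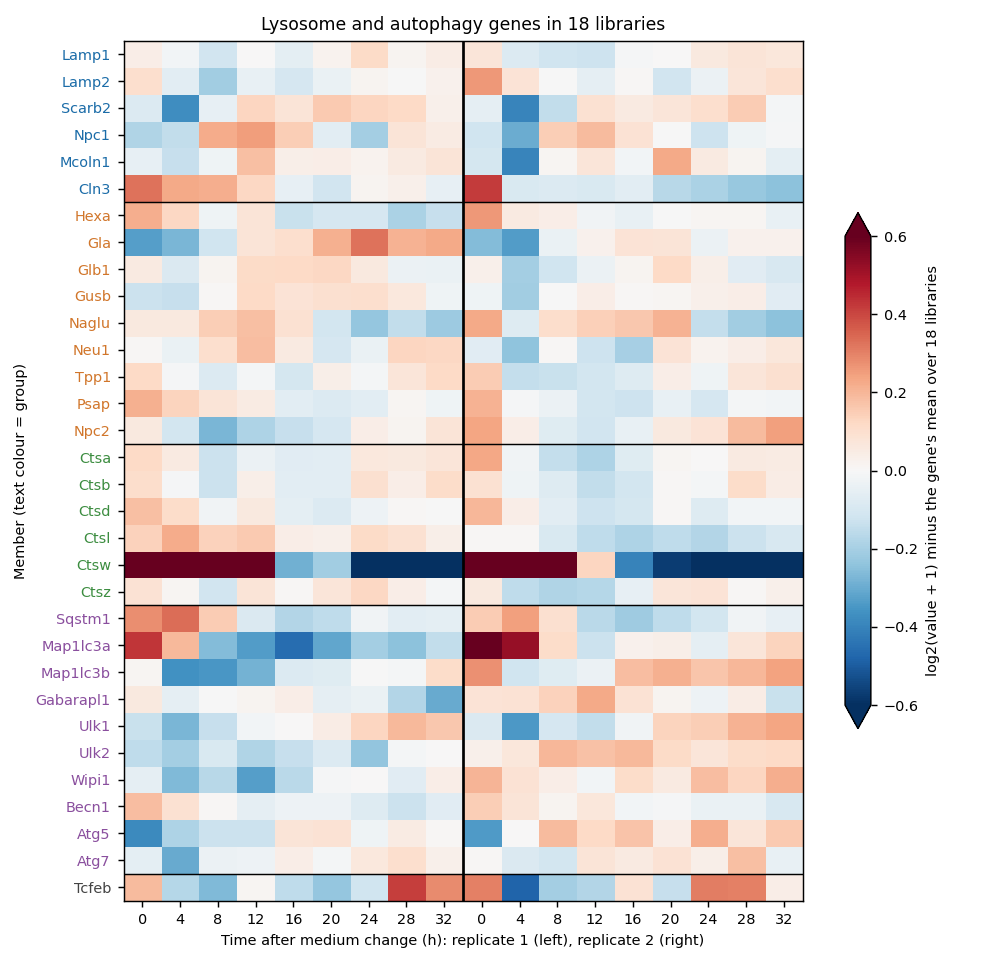
Each cell shows log2(value + 1) of a tested member in 1 library minus the mean of that gene over the 18 libraries, for replicate 1 (left) and replicate 2 (right) from 0 to 32 h, with the text colour giving the role. Values beyond 0.6 either way, mostly those of Ctsw, are drawn at the end of the scale, and Map1lc3a, Map1lc3b, Gabarapl1, Ulk2 and Wipi1 are redder in replicate 2.

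Against 0 h, the calls among the members were mostly toward lower values on the deposited scale. At 4 h, 4 of 32 were called and all 4 were lower, beside 21.5% of all tested genes, 11.0% higher and 10.5% lower. At 8 h, 15 were called, 2 higher and 13 lower, beside 34.4% (17.3% higher, 17.1% lower). At 16 h, 15 were called, 3 higher and 12 lower, beside 36.5% (18.7% higher, 17.8% lower). At 24 h, 14 were called, 4 higher and 10 lower, beside 37.2% (18.6% each way). At 32 h, 13 were called, 3 higher and 10 lower, beside 40.8% (20.5% higher, 20.4% lower). The median log2 change of the tested members from 0 h was -0.15 for 4 h and for 8 h, then -0.10, -0.073 and -0.046 for 16, 24 and 32 h, while that of all tested genes lay between -0.0043 and 0.013. These 5 comparisons share the same 2 libraries at 0 h, so they are not independent.

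That direction depended on the scaling. With equal totals the calls were 0 higher and 3 lower at 4 h, 4 higher and 1 lower at 8 h, 9 and 3 at 16 h, 11 and 2 at 24 h, and 13 and 1 at 32 h. Among all tested genes equal totals gave 4011 higher and 1148 lower at 8 h, and 5561 and 1301 at 32 h. With quantile normalization they were 0 higher and 2 lower at 4 h, 2 and 3 at 8 h, 3 and 5 at 16 h, 6 and 4 at 24 h, and 5 and 6 at 32 h. Only at 4 h were all calls lower in each of the 3 scalings. Single libraries also moved these counts. At 4 h 1 call was left without 0 h R2 and 1 without 4 h R2. At 8 h there were 9 without 0 h R1, 3 without 0 h R2, 7 without 8 h R1 and 9 without 8 h R2. There were 8 calls at 16 h without 16 h R1, 8 at 24 h without 24 h R1 and 8 at 32 h without 32 h R1. With the replicate number as a block (a term for replicate 1 or 2 in the fit), the calls at 4 h rose from 4 to 12, of which 1 was higher and 11 lower. The share of all tested genes at 4 h in that fit is not given here. In the F test the block raised the calls of all tested genes too.

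**Figure D2:**
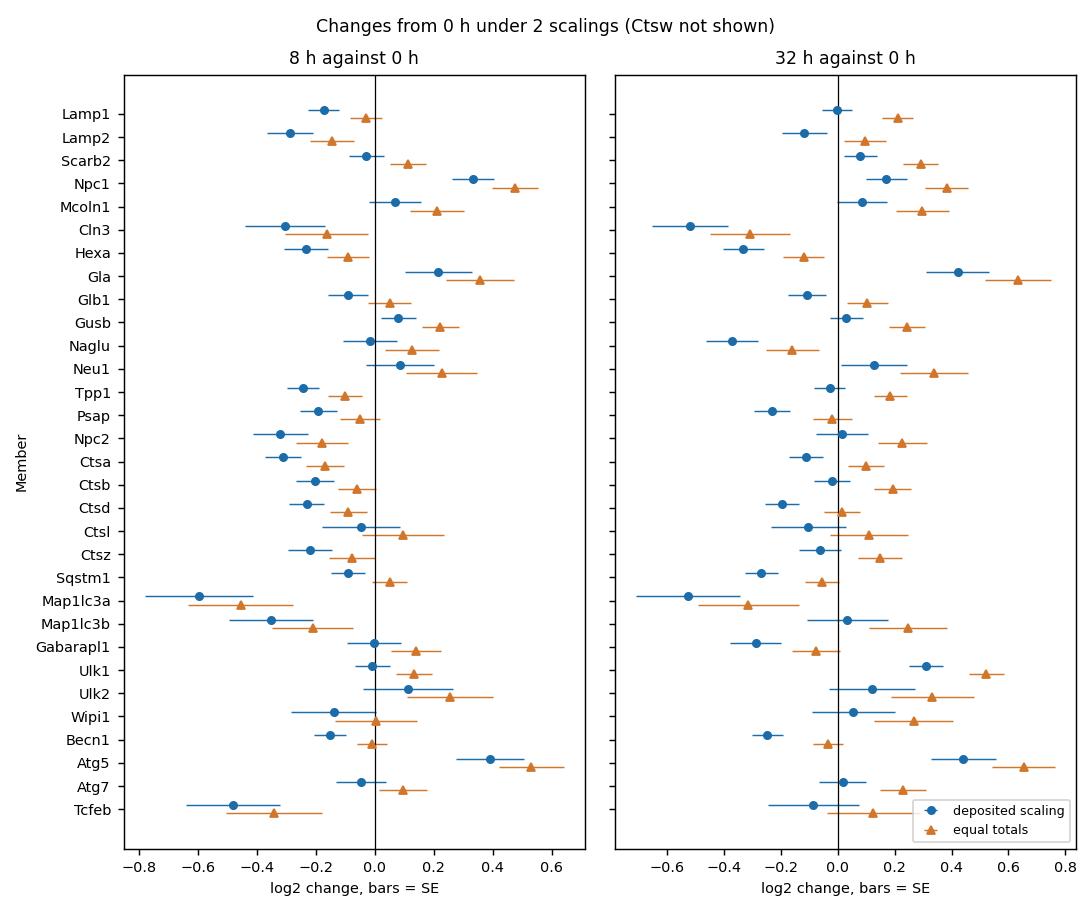
Log2 change from 0 h at 8 h (left) and at 32 h (right) for the tested members other than Ctsw, with the deposited scaling (circles) and with equal totals (triangles). Bars are standard errors, and every triangle lies to the right of its circle, by a shift that for all tested genes was 0.14 at 8 h and 0.21 at 32 h.

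The comparison of 32 h with 8 h does not involve the 0 h level. It called 10 of the 32 members, 6 higher and 4 lower, beside 27.6% of all tested genes (13.5% higher, 14.1% lower). The 6 higher at 32 h were Lamp1, Tpp1, Npc2, Ctsa, Ctsb and Ulk1, and the 4 lower were Naglu, Ctsw, Sqstm1 and Gabarapl1. Equal totals gave 11 higher and 2 lower, and quantile normalization 7 and 3. The count was 4 without 8 h R1, 6 without 8 h R2, 4 without 32 h R1 and 3 without 32 h R2. Ctsw and Ulk1 kept their calls in all 28 alternatives, and the losses of the others stand with each gene below.

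Tfeb itself was low at 4 h, and from 24 h on its libraries overlapped those at 0 h. Tfeb stood at 156 and 169 at 0 h, 121 and 97.8 at 4 h, 114 and 118 at 8 h, 138 and 121 at 12 h, 123 and 145 at 16 h, 116 and 124 at 20 h, 126 and 169 at 24 h, 182 and 169 at 28 h and 166 and 141 at 32 h (replicate 1 and replicate 2, normalized reads, as in all such sentences below). Both libraries at each time from 4 to 20 h lay below both at 0 h, and those at 24, 28 and 32 h overlapped them. The F test called it (adjusted p = 0.0220). Tfeb was lower than at 0 h at 4 h (log2 change -0.57 ± 0.16, adjusted p = 0.0211, where ± gives the standard error) and at 8 h (-0.48 ± 0.16, adjusted p = 0.0316). At 32 h its change from 0 h was -0.086 ± 0.16, adjusted p = 0.699. A rise from 8 h to 32 h (log2 change 0.40) was not called, and neither was a linear drift over the course. Tfeb lost its F call without 28 h R1 (adjusted p = 0.0655), its call at 4 h without 0 h R2 or 4 h R2 (adjusted p = 0.143 and 0.145) and its call at 8 h without any 1 library of 0 or 8 h, or with no filter, equal totals or DESeq2 (adjusted p from 0.0556 to 0.154). With 2524 reads in all 18 libraries together, 76 to 211 in each, it was the tested member with the lowest level per kb.

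Among the 6 membrane proteins, Scarb2 and Npc1 changed and did so at different times: Scarb2 was low at 4 h, and Npc1 was high from 8 to 16 h. Against 0 h the calls of the group were 0 higher and 1 lower at 4 h, 1 and 2 at 8 h, 1 and 2 at 16 h, 1 and 1 at 24 h, and 0 and 1 at 32 h. With equal totals none was lower after 4 h: the higher calls numbered 1 for 8 h, 3 for 16 h, 4 for 24 h and 4 for 32 h.

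Scarb2 encodes LIMP2, a membrane protein that carries glucocerebrosidase to the lysosome. Scarb2 was at 968 and 987 at 0 h, 791 and 780.0 at 4 h, 993 and 925 at 8 h, 1121 and 1094 at 12 h, 1083 and 1066 at 16 h, 1142 and 1079 at 20 h, 1122 and 1099.9 at 24 h, 1115 and 1139 at 28 h and 1049 and 1016 at 32 h. Both 4 h libraries were the lowest of all 18, and both libraries at every time from 12 to 32 h lay above those at 0 h. Scarb2 was lower than at 0 h at 4 h (-0.32 ± 0.058, adjusted p = 0.00193), a call kept in all 28 alternatives, and higher at 24 h (0.18 ± 0.058, adjusted p = 0.0230). For Scarb2, the 24 h call was lost without any 1 library of 0 or 24 h, or with DESeq2 (adjusted p from 0.0520 to 0.102).

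Npc1 encodes the membrane protein that passes cholesterol out of the lysosome. Npc1 was at 669 and 697 at 0 h, 684 and 617 at 4 h, 884 and 839 at 8 h, 901 and 864 at 12 h, 838 and 805 at 16 h, 725 and 755 at 20 h, 658 and 695 at 24 h, 799 and 743 at 28 h and 783 and 754 at 32 h. The libraries at 8, 12 and 16 h were the 6 highest of the 18, and those at 4 h and 24 h overlapped 0 h. Npc1 was higher than at 0 h at 8 h (0.33 ± 0.072, adjusted p = 0.00286), kept in all 28 alternatives, and at 16 h (0.27 ± 0.072, adjusted p = 0.00997). The call at 16 h was lost without 0 h R1 or 16 h R1 (adjusted p = 0.0644 and 0.0777). At 24 h the change from 0 h was -0.015 ± 0.072, adjusted p = 0.899. In the RefSeq annotation of GRCm38 the gene span of Npc1 shares 8982 bases with that of Rmc1, and reads there cannot be assigned without knowing the strand rule of the counting, which is not given in the sources used here.

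Mcoln1 encodes TRPML1, the calcium channel of the lysosomal membrane, and has 2 TCACGTG sites, the nearer one shown above. Mcoln1 was at 778 and 749.6 at 0 h, 731 and 611 at 4 h, 792 and 812 at 8 h, 913 and 847 at 12 h, 825 and 796 at 16 h, 829 and 944 at 20 h, 817 and 835 at 24 h, 835 and 816 at 28 h and 849 and 773 at 32 h. Both 4 h libraries were below all the others, and both libraries at each time from 8 to 28 h were above those at 0 h. No comparison with 0 h called it; at 4 h the change was -0.19 ± 0.089, adjusted p = 0.139, called without 4 h R1 (adjusted p = 0.0422). The F test did call it (adjusted p = 0.0344), and Mcoln1 lost this call without either 28 h library, 0 h R2, 4 h R2, 12 h R1 or 20 h R2, or with quantile normalization or no variance trend (adjusted p from 0.0507 to 0.176).

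Lamp1, with 4 sites, is the main glycoprotein of the lysosomal membrane. Lamp1 was at 14664 and 14974 at 0 h, 14097 and 13476 at 4 h, 13159 and 13126 at 8 h, 14257 and 13088 at 12 h, 13699 and 14156 at 16 h, 14466 and 14289 at 20 h, 15423 and 14819 at 24 h, 14419 and 15035 at 28 h and 14690.0 and 14914 at 32 h. Both libraries at every time from 4 to 20 h were below those at 0 h, and those from 24 to 32 h overlapped them. It was lower at 8 h than at 0 h (-0.17 ± 0.053, adjusted p = 0.0210) and higher at 32 h than at 8 h (0.17 ± 0.053, adjusted p = 0.0261). Lamp1 lost the first call without either 8 h library or 0 h R2, or with equal totals or quantile normalization (adjusted p from 0.0770 to 0.848) and the second without any 1 library of 8 or 32 h (adjusted p from 0.0799 to 0.144). Its F call (adjusted p = 0.0481) was lost in 19 of 28 alternatives, without any 1 library of 0, 4, 8, 16, 20, 24, 28 or 32 h, or with no filter, no variance trend or edgeR (adjusted p from 0.05004 to 0.120).

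Cln3 encodes the lysosomal membrane protein affected in juvenile neuronal ceroid lipofuscinosis. Cln3 was at 599 and 639.8 at 0 h, 560.1 and 448 at 4 h, 556 and 452 at 8 h, 521 and 448 at 12 h, 461 and 458 at 16 h, 442 and 426 at 20 h, 482 and 418 at 24 h, 488 and 408 at 28 h and 462 and 402 at 32 h. Both 0 h libraries were the highest of the 18, and replicate 1 was above replicate 2 at 8 of 9 times, all but 0 h. Cln3 was lower than at 0 h at 16 h (-0.43 ± 0.13, adjusted p = 0.0217), 24 h (-0.46 ± 0.13, adjusted p = 0.0146) and 32 h (-0.52 ± 0.13, adjusted p = 0.00654), while the F test did not call it (adjusted p = 0.0687) unless 4 h R2 or 8 h R2 was left out, or with DESeq2 or the replicate block. For Cln3, the 16 h call was lost without either 16 h library or 0 h R2, or with equal totals (adjusted p from 0.0795 to 0.171), and the 24 h call without 0 h R2 or 24 h R2, or with equal totals (adjusted p from 0.0840 to 0.138). Its 32 h call was lost without 32 h R2, or with equal totals (adjusted p = 0.0709 and 0.0760). In the RefSeq annotation of GRCm38 its gene span shares 900 bases with that of Apobr, with the same limit as for Npc1.

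Lamp2, which also serves as the receptor of chaperone-mediated autophagy, ranged from 4101 to 5688. It was called lower than at 0 h at 8 h (-0.29 ± 0.078, adjusted p = 0.0113) and 16 h (-0.23 ± 0.078, adjusted p = 0.0345). Lamp2 lost the first call without 0 h R2 or 8 h R1, or with equal totals or quantile normalization (adjusted p from 0.0691 to 0.143). It lost the second without 0 h R2 or 16 h R1, or with equal totals, quantile normalization or no variance trend (adjusted p from 0.0576 to 0.720).

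**Figure D3:**
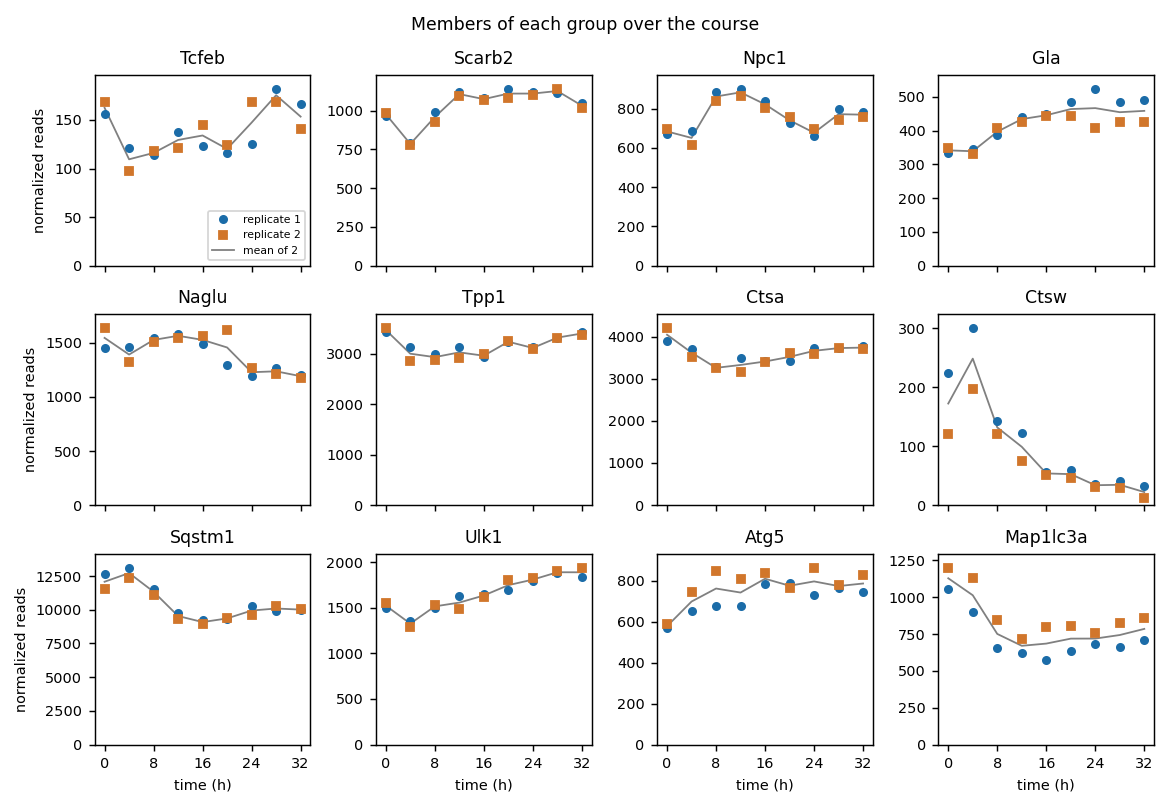
Normalized reads against time for 12 members of the 5 roles, with replicate 1 as circles, replicate 2 as squares and the mean of both as a line, each axis starting at 0. Scarb2 and Ulk1 are lowest at 4 h, Npc1 is highest at 12 h and Ctsw falls from 249 at 4 h to 22.1 at 32 h.

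Hydrolases and soluble cofactors did not move together. Gla rose, Naglu and Hexa fell, and Tpp1 fell and came back. Of the 9, the calls against 0 h were 0 higher and 1 lower at 4 h, 0 and 4 at 8 h, 1 and 3 at 16 h, 1 and 4 at 24 h, and 1 and 3 at 32 h. With equal totals the same comparisons gave 0 and 1, 2 and 0, 3 and 0, 3 and 0, and 5 and 0, so the falls from 8 h on were not calls under that scaling.

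Gla encodes alpha-galactosidase A, which is missing in Fabry disease. Gla was at 333 and 350.1 at 0 h, 346 and 332 at 4 h, 386 and 408 at 8 h, 442 and 427 at 12 h, 449 and 443 at 16 h, 486 and 442 at 20 h, 525 and 409 at 24 h, 484 and 426 at 28 h and 491 and 427 at 32 h. Both libraries at every time from 8 to 32 h lay above both at 0 h, and replicate 1 was the higher one from 12 h on. Gla was higher than at 0 h at 16 h (0.38 ± 0.11, adjusted p = 0.0154), 24 h (0.44 ± 0.11, adjusted p = 0.00698) and 32 h (0.42 ± 0.11, adjusted p = 0.00806). These changes were above 0 in both other scalings too. Gla lost its F call with quantile normalization (adjusted p = 0.0519). For Gla, the 16 h call was lost without either 16 h library or 0 h R1, or with quantile normalization (adjusted p from 0.0542 to 0.0806), and the 24 h call without 24 h R1 (adjusted p = 0.101). Its 32 h call was lost without 0 h R1 or 32 h R1 (adjusted p = 0.0524 and 0.0925).

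Naglu encodes the N-acetylglucosaminidase of heparan sulfate breakdown. Naglu was at 1457 and 1637 at 0 h, 1459 and 1326 at 4 h, 1549 and 1507 at 8 h, 1587 and 1545 at 12 h, 1492 and 1565 at 16 h, 1297 and 1619.5 at 20 h, 1190.3 and 1268 at 24 h, 1265 and 1210.5 at 28 h and 1204 and 1180.2 at 32 h. The libraries at 24, 28 and 32 h were all below both at 0 h, and those from 4 to 20 h overlapped 0 h. Naglu was lower than at 0 h at 24 h (-0.33 ± 0.091, adjusted p = 0.0109) and 32 h (-0.37 ± 0.091, adjusted p = 0.00464), and lower at 32 h than at 8 h (-0.36 ± 0.091, adjusted p = 0.0105). For Naglu, the 24 h call was lost without 0 h R2 or 24 h R1, or with equal totals (adjusted p from 0.0745 to 0.272), and the 32 h call without 0 h R2, or with equal totals (adjusted p = 0.0563 and 0.156). Its 32 h against 8 h call was lost without 8 h R1 or 32 h R2 (adjusted p = 0.0669 and 0.0723). Gla and Naglu are among the 9 members with TCACGTG, and a link between the element and the changes was not tested.

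Hexa encodes the alpha subunit of beta-hexosaminidase, which is missing in Tay-Sachs disease. Hexa was at 3142 and 3231 at 0 h, 2941 and 2802 at 4 h, 2653 and 2769 at 8 h, 2851 and 2658 at 12 h, 2461 and 2620.0 at 16 h, 2516 and 2696 at 20 h, 2512 and 2718 at 24 h, 2369 and 2718 at 28 h and 2449 and 2613 at 32 h. Both 0 h libraries were the highest of the 18. The F call of Hexa (adjusted p = 0.0180) was lost without either 0 h library, or with equal totals or quantile normalization (adjusted p from 0.0686 to 0.677). Hexa was lower than at 0 h at 8 h (-0.23 ± 0.073, adjusted p = 0.0243), 16 h (-0.33 ± 0.073, adjusted p = 0.00289), 24 h (-0.29 ± 0.073, adjusted p = 0.00698) and 32 h (-0.33 ± 0.073, adjusted p = 0.00229). For Hexa, the 8 h call was lost without either 0 h library or 8 h R1, or with equal totals or quantile normalization (adjusted p from 0.0553 to 0.331), and the 16 h call with equal totals (adjusted p = 0.126). Its 24 h call was lost without 24 h R1, or with equal totals or quantile normalization (adjusted p from 0.0661 to 0.358), and its 32 h call with equal totals (adjusted p = 0.169).

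Tpp1 encodes tripeptidyl peptidase 1, an aminopeptidase of the lysosome. Tpp1 was at 3437 and 3511 at 0 h, 3144 and 2865 at 4 h, 2989 and 2883 at 8 h, 3133 and 2929 at 12 h, 2937 and 2991 at 16 h, 3234 and 3249 at 20 h, 3136 and 3101 at 24 h, 3323 and 3323 at 28 h and 3434 and 3378 at 32 h. All libraries after 0 h lay below both 0 h libraries, with replicate 1 at 32 h the nearest to them. Tpp1 was lower than at 0 h at 4 h (-0.21 ± 0.054, adjusted p = 0.0141), 8 h (-0.24 ± 0.054, adjusted p = 0.00352), 16 h (-0.23 ± 0.054, adjusted p = 0.00415) and 24 h (-0.16 ± 0.054, adjusted p = 0.0354), and higher at 32 h than at 8 h (0.21 ± 0.054, adjusted p = 0.0100). For Tpp1, the 4 h call was lost without 0 h R2 or 4 h R2, or with quantile normalization (adjusted p from 0.0547 to 0.119), and the 8 h call with equal totals or quantile normalization (adjusted p = 0.0570 and 0.181). Its 16 h call was lost with equal totals or quantile normalization (adjusted p = 0.102 and 0.609), and its 24 h call without any 1 library of 0 or 24 h, or with equal totals, quantile normalization or edgeR (adjusted p from 0.0529 to 0.642). The call of 32 h against 8 h was lost without either 32 h library or 8 h R2 (adjusted p from 0.0517 to 0.0636). With equal totals its change at 24 h turned to 0.049.

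Psap encodes prosaposin, the precursor of the saposins that help hydrolases reach sphingolipids. Psap was at 27823 and 27769 at 0 h, 26307 and 23911 at 4 h, 25299 and 23432 at 8 h, 24809 and 22247 at 12 h, 22948 and 22012 at 16 h, 22684 and 23287 at 20 h, 22976 and 22404 at 24 h, 24224 and 23805 at 28 h and 23575 and 23766 at 32 h. Both 0 h libraries were the highest, and all the others lay below them. The F call of Psap (adjusted p = 0.02001) was lost without either 0 h library, or with equal totals or quantile normalization (adjusted p from 0.104 to 0.707). Psap was lower than at 0 h at 8 h (-0.19 ± 0.064, adjusted p = 0.0329), 16 h (-0.31 ± 0.064, adjusted p = 0.00172), 24 h (-0.29 ± 0.064, adjusted p = 0.00235) and 32 h (-0.23 ± 0.064, adjusted p = 0.00968). For Psap, the 8 h call was lost without either 0 h library or 8 h R2, or with no filter, equal totals or quantile normalization (adjusted p from 0.0571 to 0.967), and the 16 h call with equal totals or quantile normalization (adjusted p = 0.171 and 0.575). Its 24 h call was lost with equal totals or quantile normalization (adjusted p = 0.293 and 0.716), and its 32 h call without 32 h R1, or with equal totals or quantile normalization (adjusted p from 0.0537 to 0.851). With quantile normalization its change turned to 0.0053 at 8 h and 0.020 at 32 h.

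Of the other hydrolases and cofactors, Npc2, the soluble partner of NPC1, ranged from 4688 to 6722 normalized reads. It was lower at 8 h than at 0 h (-0.32 ± 0.093, adjusted p = 0.0161) and higher at 32 h than at 8 h (0.33 ± 0.093, adjusted p = 0.0157). Npc2 lost its F call without either 12 h library, 0 h R2, 8 h R1, 16 h R1, 24 h R2 or 32 h R2, or with no filter or no variance trend (adjusted p from 0.0501 to 0.0822). Its 8 h call was lost without 0 h R2 or 8 h R1, or with equal totals or quantile normalization (adjusted p from 0.0972 to 0.158), and its 32 h against 8 h call without 8 h R1 or 32 h R2 (adjusted p = 0.162 and 0.162). At 16 h it was called lower without 0 h R1 or either 8 h library (adjusted p from 0.0382 to 0.0473). Gusb (beta-glucuronidase), from 2050.4 to 2568, had an F call (adjusted p = 0.0204), lost without 4 h R2 (adjusted p = 0.0982), and no other call on the deposited scale with all libraries. Glb1 (beta-galactosidase), from 1375 to 1728, and Neu1 (sialidase 1), from 359 to 482, had no call in any of the 9 tests on the deposited scale with all libraries. With the replicate block Glb1 passed the F test (adjusted p = 0.00367) and was lower at 4 h (adjusted p = 0.00976). The gene span of Glb1 shares 10107 bases with that of Tmppe in the RefSeq annotation of GRCm38, where the strand rule limits the assignment of reads as for Npc1 and Cln3.

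The abundant cathepsins A, B, D and Z were lower at 8 h than at 0 h, while Ctsw, which is scarce, had the largest range of time means of the tested members. Of the 6 tested, the calls against 0 h were 4 lower at 8 h, 4 lower at 16 h, 2 lower at 24 h and 2 lower at 32 h, with none higher. With equal totals, 1 was lower at each of 8, 16, 24 and 32 h, and 1 was higher at 24 and 32 h.

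Ctsw encodes cathepsin W, a protease known from cytotoxic lymphocytes. Ctsw was at 224 and 121 at 0 h, 300.4 and 197 at 4 h, 143 and 121 at 8 h, 123 and 75.1 at 12 h, 55.9 and 51.5 at 16 h, 59.1 and 45.8 at 20 h, 36.1 and 31.1 at 24 h, 40.6 and 28.1 at 28 h and 32.0 and 12.1 at 32 h. Replicate 1 was higher than replicate 2 at all 9 times, and both libraries at every time from 16 to 32 h lay below both at 0 h, while those at 4, 8 and 12 h overlapped 0 h. The recovered reads behind this were 248 and 88 at 0 h and 34 and 12 at 32 h, 1688 in all 18 libraries. Ctsw was lower than at 0 h at 16 h (-1.60 ± 0.39, adjusted p = 0.00534), 24 h (-2.26 ± 0.39, adjusted p = 0.000410) and 32 h (-2.99 ± 0.39, adjusted p = 3.5e-05), and lower at 32 h than at 8 h (-2.67 ± 0.39, adjusted p = 0.000317). The calls at 24 h, at 32 h and of 32 h against 8 h were kept in all 28 alternatives, both scalings among them, and that at 16 h was lost without 0 h R1 (adjusted p = 0.0717).

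Cathepsin W lies beside Fibp and Efemp2, and in the RefSeq annotation of GRCm38 it shares 10 bases with Fibp. Fibp had 1553 ± 56.6 (SD, n = 2) normalized reads at 0 h and 1296 ± 29.5 at 32 h, and Efemp2 had 10807 ± 31.6 and 7744 ± 213. Both lay far above the 172 ± 72.9 and 22.1 ± 14.0 of Ctsw at those times. Whether reads of these neighbours had a part in the fall of Ctsw was not tested. Ptprc, the leukocyte marker, was at 0 to 4.87 in all libraries. The 5 epithelial markers summed to 831 to 1121 at 0 h and 163 to 178 at 32 h. Krt8, at 99.0 to 1079, carried most of these reads, and Krt18 was at 11.05 to 80.4. Epcam was at 0 to 3.86, Cdh1 at 0 to 3.58 and Krt19 at 0 to 0.91. Their part in the fall of Ctsw was not tested.

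Ctsa encodes cathepsin A, the protective protein of beta-galactosidase and sialidase 1. Ctsa was at 3894 and 4205 at 0 h, 3720.1 and 3529 at 4 h, 3276 and 3248 at 8 h, 3505 and 3158 at 12 h, 3419.7 and 3407 at 16 h, 3431 and 3615 at 20 h, 3745 and 3589 at 24 h, 3738 and 3726 at 28 h and 3776 and 3712 at 32 h. All 16 libraries after 0 h lay below both 0 h libraries. Ctsa was lower than at 0 h at 8 h (-0.31 ± 0.06, adjusted p = 0.00126), kept in all 28 alternatives, and at 16 h (-0.25 ± 0.06, adjusted p = 0.00488), and it was higher at 32 h than at 8 h (0.20 ± 0.06, adjusted p = 0.0231). For Ctsa, the 16 h call was lost without 0 h R2, or with equal totals or quantile normalization (adjusted p from 0.0631 to 0.490), and the 32 h against 8 h call without any 1 library of 8 or 32 h (adjusted p from 0.0843 to 0.108). In the RefSeq annotation of GRCm38 it shares bases with Neurl2 and Pltp. Of the 36 members, 10 overlapped a coding gene in this way. Beside those named so far, Ctsb shares 774 bases with Fdft1, Becn1 444 with Cntd1 and Hexa 135 with Tmem202. Map1lc3b shares 64 with Zcchc14 and Ctsz 12 with Nelfcd. The limit given for Npc1 holds for all of these.

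Ctsd encodes cathepsin D, the main aspartic protease of the lysosome. Ctsd was at 16273 and 16459 at 0 h, 15495 and 14752 at 4 h, 14134 and 13751 at 8 h, 14945 and 13185 at 12 h, 13773 and 13333 at 16 h, 13548 and 14418 at 20 h, 14047 and 13587 at 24 h, 14425 and 14195 at 28 h and 14324 and 14206 at 32 h. Both 0 h libraries were the highest of the 18. The F call of Ctsd (adjusted p = 0.0279) was lost without either 0 h library or 16 h R2, or with equal totals, quantile normalization or no variance trend (adjusted p from 0.0546 to 0.607). Ctsd was lower than at 0 h at 8 h (-0.23 ± 0.06, adjusted p = 0.00876), 16 h (-0.27 ± 0.06, adjusted p = 0.00253), 24 h (-0.24 ± 0.06, adjusted p = 0.00520) and 32 h (-0.20 ± 0.06, adjusted p = 0.0163). For Ctsd, the 8 h call was lost without 0 h R2 or 8 h R2, or with equal totals or quantile normalization (adjusted p from 0.0539 to 0.436), and the 16 h call with equal totals or quantile normalization (adjusted p = 0.3004 and 0.479). Its 24 h call was lost with equal totals or quantile normalization (adjusted p = 0.625 and 0.653), and its 32 h call without any 1 library of 0 or 32 h, or with equal totals or quantile normalization (adjusted p from 0.0542 to 0.862). At 32 h its change turned to 0.015 with equal totals and 0.043 with quantile normalization.

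Ctsb encodes cathepsin B, an abundant cysteine protease. Ctsb was at 11278 and 11184 at 0 h, 10453 and 10289 at 4 h, 9579.7 and 9943 at 8 h, 10746 and 9468 at 12 h, 10053 and 9707 at 16 h, 10037 and 10532 at 20 h, 11197 and 10395 at 24 h, 10773 and 11340.0 at 28 h and 11333 and 10835 at 32 h. Both libraries at each time from 4 to 20 h lay below those at 0 h, and those from 24 to 32 h overlapped them. Ctsb was lower than at 0 h at 8 h (-0.20 ± 0.063, adjusted p = 0.0233) and 16 h (-0.19 ± 0.063, adjusted p = 0.0330), and higher at 32 h than at 8 h (0.18 ± 0.063, adjusted p = 0.0435). It lost the call at 8 h without either 0 h library or 8 h R1, or with equal totals or quantile normalization (adjusted p from 0.0819 to 0.489) and at 16 h without any 1 library of 0 or 16 h, or with equal totals, quantile normalization or no variance trend (adjusted p from 0.0515 to 0.955), where equal totals gave a change of 0.0051. The F test did not call Ctsb (adjusted p = 0.0709) unless either 12 h library was left out, or with either other scaling, DESeq2 or the replicate block. The call of 32 h against 8 h was lost in 14 of 28 alternatives, without any 1 library of 0, 4, 8, 16, 28 or 32 h, or with no filter or no variance trend (adjusted p from 0.0503 to 0.210).

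Ctsz encodes cathepsin Z, a carboxypeptidase. Ctsz was at 2768 and 2714 at 0 h, 2628 and 2345 at 4 h, 2409 and 2302 at 8 h, 2747 and 2312 at 12 h, 2622 and 2522 at 16 h, 2743 and 2743 at 20 h, 2842 and 2756 at 24 h, 2678 and 2617 at 28 h and 2586 and 2659 at 32 h. The 4, 8, 16, 28 and 32 h libraries lay below both at 0 h, and the others overlapped them. Ctsz was called at 8 h only (-0.22 ± 0.074, adjusted p = 0.0340), and lost this call without any 1 library of 0 or 8 h, or with equal totals, quantile normalization or no variance trend (adjusted p from 0.0518 to 0.459). Ctsl, from 19275 to 25545 normalized reads, had no call in any of the 9 tests (F test, adjusted p = 0.904). With the replicate block Ctsl passed the F test (adjusted p = 0.0195), the comparison of 16 h with 0 h (adjusted p = 0.0161) and the test of a drift (adjusted p = 0.00297). Ctsz then passed the F test (adjusted p = 0.0135) and the comparison of 32 h with 8 h (adjusted p = 0.0389).

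The 4 cathepsins under the filter were nearly silent. Ctsf had 163 reads in all, 24 and 23 at 0 h, 24 and 19 at 4 h, 9 and 11 at 8 h and then 1 to 9 in each library, with 1 and 4 at 32 h. Fitted with no filter, its change from 0 h was -3.12 ± 0.51 at 32 h (adjusted p = 0.000357). Ctsk, known from osteoclasts, had 168 reads, 1 to 18 in each library, and its F test with no filter gave an adjusted p of 0.655. Ctsh and Ctss, both known from immune cells, had 2 reads each, 1 read in each of 2 libraries. The epithelial marker sums given for Ctsw fell over the same hours as Ctsf, and their part in it was not tested.

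Autophagy genes moved both ways: Sqstm1, Map1lc3a and Becn1 fell from their 0 h or 4 h levels, and Ulk1 and Atg5 rose. Against 0 h, the calls among the 10 were 0 higher and 1 lower at 4 h, 1 and 2 at 8 h, 1 and 3 at 16 h, 2 and 3 at 24 h, and 2 and 4 at 32 h. With equal totals they were 1 and 0 at 8 h, 3 and 2 at 16 h, 3 and 1 at 24 h, and 3 and 0 at 32 h.

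Sqstm1 encodes p62, the receptor that ties ubiquitinated cargo to LC3. Sqstm1 was at 12616 and 11536 at 0 h, 13117 and 12323 at 4 h, 11561 and 11106 at 8 h, 9785 and 9283 at 12 h, 9203 and 8964 at 16 h, 9347 and 9363 at 20 h, 10245 and 9632 at 24 h, 9931 and 10251 at 28 h and 9990.3 and 10028 at 32 h. The libraries from 12 to 32 h all lay below both at 0 h, and those at 4 and 8 h overlapped them. Sqstm1 was lower than at 0 h at 16 h (-0.41 ± 0.057, adjusted p = 6.83e-05), kept in all 28 alternatives, and at 24 h (-0.28 ± 0.057, adjusted p = 0.00143) and 32 h (-0.27 ± 0.057, adjusted p = 0.00175). It was also lower at 32 h than at 8 h (-0.18 ± 0.057, adjusted p = 0.0312). For Sqstm1, the 24 h call was lost with equal totals or quantile normalization (adjusted p = 0.1997 and 0.301), and the 32 h call with equal totals or quantile normalization (adjusted p = 0.436 and 0.552). Its 32 h against 8 h call was lost without any 1 library of 8 or 32 h, or with equal totals or quantile normalization (adjusted p from 0.0532 to 0.338).

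Ulk1 encodes the kinase that starts autophagosome formation. Ulk1 was at 1496 and 1549 at 0 h, 1358 and 1292 at 4 h, 1494 and 1533 at 8 h, 1626 and 1485 at 12 h, 1646 and 1619.8 at 16 h, 1693 and 1799.9 at 20 h, 1795 and 1819.5 at 24 h, 1879 and 1897 at 28 h and 1837 and 1938 at 32 h. Both 4 h libraries were the lowest of the 18, and both libraries at every time from 16 to 32 h lay above those at 0 h. Ulk1 was lower than at 0 h at 4 h (-0.20 ± 0.06, adjusted p = 0.0288) and higher at 24 h (0.25 ± 0.06, adjusted p = 0.00470) and 32 h (0.31 ± 0.06, adjusted p = 0.000856), and higher at 32 h than at 8 h (0.32 ± 0.06, adjusted p = 0.00173). The 3 calls toward higher values were kept in all 28 alternatives, and that at 4 h was lost without either 4 h library or 0 h R2, or with equal totals or quantile normalization (adjusted p from 0.0533 to 0.187).

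Atg5 encodes part of the conjugate that lipidates LC3. Atg5 was at 569 and 586 at 0 h, 653 and 743 at 4 h, 678 and 845 at 8 h, 677 and 806 at 12 h, 783 and 835 at 16 h, 788 and 762 at 20 h, 729 and 863 at 24 h, 766 and 781 at 28 h and 746 and 826 at 32 h. All 16 libraries after 0 h lay above both 0 h libraries, and replicate 2 was above replicate 1 at 8 of 9 times. Atg5 was higher than at 0 h at 8 h (0.39 ± 0.12, adjusted p = 0.0185), 16 h (0.49 ± 0.12, adjusted p = 0.00437), 24 h (0.46 ± 0.12, adjusted p = 0.00642) and 32 h (0.44 ± 0.12, adjusted p = 0.00713). The call at 16 h was kept in all 28 alternatives. Atg5 lost that at 8 h without either 0 h library or 8 h R2 (adjusted p from 0.0632 to 0.190), at 24 h without 24 h R2 (adjusted p = 0.0837) and at 32 h without 32 h R2 (adjusted p = 0.0706). Its F call (adjusted p = 0.0463) was lost in 14 of 28 alternatives, without any 1 library of 0, 16, 20, 28 or 32 h or 4 h R1, or with no filter, no variance trend or edgeR (adjusted p from 0.0501 to 0.240).

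Becn1 encodes Beclin 1, the scaffold of the lipid kinase complex that grows the autophagosome membrane. Becn1 was at 2965 and 2890.1 at 0 h, 2782 and 2756 at 4 h, 2627 and 2644 at 8 h, 2513 and 2740.5 at 12 h, 2556 and 2578 at 16 h, 2559.8 and 2597 at 20 h, 2471 and 2539 at 24 h, 2389 and 2539.5 at 28 h and 2489 and 2441 at 32 h. Both 0 h libraries were the highest of the 18. The F call of Becn1 (adjusted p = 0.0148) was lost without 0 h R1, or with equal totals or quantile normalization (adjusted p from 0.0737 to 0.916). Becn1 was lower than at 0 h at 8 h (-0.15 ± 0.053, adjusted p = 0.0407), 16 h (-0.19 ± 0.053, adjusted p = 0.0121), 24 h (-0.22 ± 0.053, adjusted p = 0.00419) and 32 h (-0.25 ± 0.053, adjusted p = 0.00192). For Becn1, the 8 h call was lost without any 1 library of 0, 8, 16 or 32 h, or with equal totals or quantile normalization (adjusted p from 0.0546 to 0.902), and the 16 h call without either 16 h library or 0 h R1, or with equal totals or quantile normalization (adjusted p from 0.0502 to 0.994). Its 24 h call was lost with equal totals or quantile normalization (adjusted p = 0.0763 and 0.768), and its 32 h call with equal totals (adjusted p = 0.586). At 16 h equal totals gave a change of 0.00055.

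Map1lc3a encodes an LC3 protein, the lipid-anchored mark of autophagosomes. Map1lc3a was at 1057 and 1200.0 at 0 h, 897 and 1129 at 4 h, 655 and 846 at 8 h, 622 and 719 at 12 h, 572 and 798 at 16 h, 632 and 805 at 20 h, 682 and 756 at 24 h, 662 and 825 at 28 h and 709 and 861 at 32 h. The F call of Map1lc3a (adjusted p = 0.0248) was lost without either 0 h library or 4 h R2, or with equal totals or no variance trend (adjusted p from 0.0537 to 0.118). Replicate 2 was above replicate 1 at all 9 times, and the libraries from 8 to 32 h all lay below both at 0 h. Map1lc3a was lower than at 0 h at 8 h (-0.60 ± 0.18, adjusted p = 0.0225), 16 h (-0.74 ± 0.18, adjusted p = 0.00601), 24 h (-0.65 ± 0.18, adjusted p = 0.0128) and 32 h (-0.53 ± 0.18, adjusted p = 0.0337). For Map1lc3a, the 8 h call was lost without 0 h R2 or 8 h R1, or with equal totals (adjusted p from 0.0534 to 0.191), and the 16 h call without 0 h R2 or 16 h R1 (adjusted p = 0.0536 and 0.0919). Its 24 h call was lost without 0 h R2 or 24 h R1 (adjusted p = 0.0788 and 0.0878), and its 32 h call without either 0 h library or 32 h R1, or with no filter, equal totals or no variance trend (adjusted p from 0.0506 to 0.216).

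Gabarapl1, of the GABARAP branch, ranged from 1576 to 2278 normalized reads. It was lower at 32 h than at 0 h (-0.29 ± 0.09, adjusted p = 0.0191) and than at 8 h (-0.29 ± 0.09, adjusted p = 0.0290). Gabarapl1 lost the first call without either 0 h library or 32 h R1, or with equal totals or quantile normalization (adjusted p from 0.0609 to 0.460), and the second without 8 h R2 or 32 h R1, or with equal totals (adjusted p from 0.0671 to 0.210). Atg7, the enzyme that activates LC3 and ATG12, ranged from 399 to 559 and was not called in a comparison of 2 times. Ulk2 (1255 to 1698) and Wipi1 (699 to 1021) had no call in any of the 9 tests on the deposited scale with all libraries. With the replicate block Wipi1 passed the F test (adjusted p = 0.00818), the comparison of 32 h with 8 h (adjusted p = 0.0257) and the test of a drift (adjusted p = 0.0333).

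A rhythm with a period of 24 h was tested for all genes, the question the series title names. Of the 32 members, 5 had an unadjusted p under 0.05, as had 18 of the 114 tested other pathway genes taken up below. The share of all tested genes at an unadjusted p is not given here. With the adjusted p 1 member was called, Npc1, beside 0.371% of all tested genes. Npc1 had a fitted peak-to-trough fold of 1.29 and a peak at 12.5 h (adjusted p = 0.0400). The call was lost in 18 of 30 alternatives, without any 1 library of 0, 8, 12, 16, 20 or 24 h, 4 h R1, 28 h R2 or 32 h R1, or with no filter or equal totals, or without both 0 h libraries (adjusted p from 0.0511 to 0.129). A linear term beside the cosine and sine raised the count to 6, with Glb1, Naglu, Ctsa, Ctsz and Sqstm1 beside Npc1. At an unadjusted p under 0.05 that fit had 12 members and 39 of those other pathway genes. The share of all tested genes in that fit is not given here. The course spans little more than 1 period.

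A linear drift beside that cycle, in log2 per 24 h, was called in 17 of the 32 members, 7 higher and 10 lower with time, beside 55.5% of all tested genes (28.2% higher, 27.3% lower). Equal totals gave 21 higher and 3 lower, quantile normalization 12 and 7, and leaving out both 0 h libraries 12 and 6. The shares of all tested genes in these 3 settings are not given here. Equal totals moved the median log2 change of all tested genes at 32 h against 0 h upward by 0.21. Drifts kept in all 29 alternatives were those of Ulk1 (0.35 ± 0.043, adjusted p = 1.81e-06), Gla (0.35 ± 0.061, adjusted p = 0.000105) and Scarb2 (0.24 ± 0.059, adjusted p = 0.00218) upward, and of Ctsw (-2.54 ± 0.23, adjusted p = 6.18e-08), Naglu (-0.28 ± 0.049, adjusted p = 0.000112) and Sqstm1 (-0.25 ± 0.034, adjusted p = 7.36e-06) downward. The other 4 upward drifts were those of Lamp1, Map1lc3b, Atg5 and Atg7, between 0.086 and 0.23. Lamp1 lost its drift without either 32 h library, 4 h R2 or 28 h R2 (adjusted p from 0.0522 to 0.0800), and Map1lc3b without any 1 library of 4 or 32 h, 0 h R1, 8 h R1, 12 h R1, 20 h R2, 24 h R2 or 28 h R2, or with no filter or no variance trend (adjusted p from 0.0504 to 0.132). Atg5 lost its drift without both 0 h libraries (adjusted p = 0.176), and Atg7 without either 28 h library or 4 h R1, or with quantile normalization (adjusted p from 0.0662 to 0.119). The other 7 downward drifts were those of Cln3, Hexa, Psap, Ctsd, Map1lc3a, Gabarapl1 and Becn1, between -0.33 and -0.10. Equal totals ended all 7 of these calls, and turned the drift of Psap to 0.018 and that of Ctsd to 0.049, while quantile normalization turned them to 0.038 and 0.057. Of these 7, Ctsd and Map1lc3a also depended on single libraries. Ctsd lost its drift without any 1 library of 0 or 24 h, 4 h R1 or 28 h R2, or with no filter, equal totals or quantile normalization, or without both 0 h libraries (adjusted p from 0.0527 to 0.454), and Map1lc3a without 0 h R2, or with equal totals, or without both 0 h libraries (adjusted p from 0.0588 to 0.198).

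The 2 replicate series differed in several autophagy genes at every time. Replicate 2 was higher than replicate 1 at all 9 times in 6 members, Map1lc3a, Map1lc3b, Gabarapl1, Ulk2, Wipi1 and Npc2, and replicate 1 in 3, Glb1, Ctsl and Ctsw. These 9 of 32 stand beside 17.2% of all tested genes with the same replicate higher at all times, 9.10% with replicate 2 and 8.14% with replicate 1. Of the 6, 5 are among the 10 autophagy genes. Their mean log2 difference (replicate 2 minus replicate 1) over the 9 times was 0.30 ± 0.10 (SD over times) for Map1lc3a, with means of 882 and 721 normalized reads. It was 0.24 ± 0.089 for Ulk2 (1609 and 1362), 0.23 ± 0.052 for Map1lc3b (1907 and 1625), 0.23 ± 0.085 for Wipi1 (951 and 815) and 0.12 ± 0.080 for Gabarapl1 (2027 and 1872). In the other direction it was -0.55 ± 0.38 for Ctsw and -0.21 ± 0.061 for Ctsl. For comparison with these gaps, the ratio of the highest to the lowest time mean was 1.68 for Map1lc3a, 1.33 for Map1lc3b, 1.27 for Gabarapl1, 1.23 for Wipi1 and 1.10 for Ulk2. The replicates carry no other label, so what differed between them was not tested.

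Map1lc3b, a second LC3 gene, shows what this gap does to the tests; it was picked after its values were seen. Map1lc3b was at 1765 and 2114 at 0 h, 1359.5 and 1610.2 at 4 h, 1373 and 1667 at 8 h, 1437 and 1706 at 12 h, 1655 and 1991 at 16 h, 1666 and 2029 at 20 h, 1747 and 1965 at 24 h, 1738 and 2010.1 at 28 h and 1889 and 2070.1 at 32 h. Within each replicate 4 h was the lowest time, and both 4 h libraries lay below both at 0 h. The F test gave an adjusted p of 0.102, and 7.24e-07 with the replicate number as a block. At 4 h against 0 h the change was -0.38 ± 0.14, adjusted p = 0.0681, and the adjusted p was 1.04e-05 with the block. Without 0 h R1 it was 0.0476. With the block the calls of the F test rose from 20 to 30, with 8965 called among all tested genes. The 10 added were Lamp2, Cln3, Glb1, Ctsb, Ctsl, Ctsz, Map1lc3b, Gabarapl1, Wipi1 and Atg7 (adjusted p from 7.24e-07 to 0.0439). At 4 h against 0 h the 8 added were Lamp2, Cln3, Glb1, Psap, Npc2, Ctsa and Map1lc3b as lower and Atg5 as higher. The block also added Cln3 and Map1lc3b at 8 h, Npc2 and Ctsl at 16 h, Lamp2, Gusb and Ctsa at 24 h and Npc1 at 32 h, all against 0 h. At 32 h against 8 h it added Lamp2, Ctsz, Map1lc3b, Wipi1 and Tfeb, and in the drift Npc2, Ctsl and Wipi1. For these comparisons and the drift, the shares of all tested genes with the block are not given here.

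**Figure D4:**
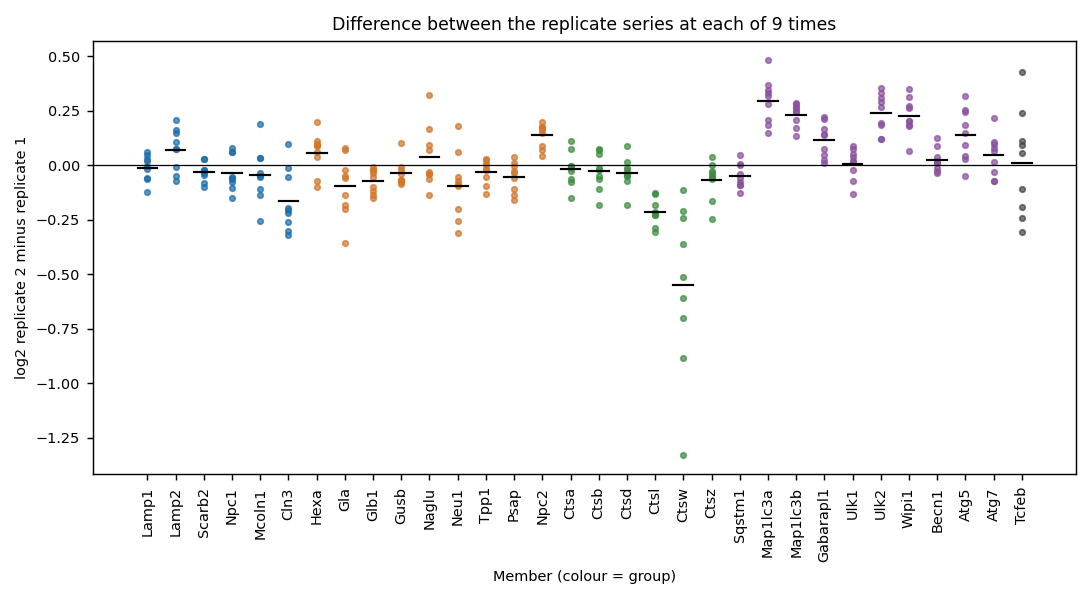
Log2 of replicate 2 minus replicate 1 at each of the 9 times (points) for the 32 tested members, with the mean over the times as a bar and the colour giving the role. All 9 points lie above 0 for Npc2, Map1lc3a, Map1lc3b, Gabarapl1, Ulk2 and Wipi1, and below 0 for Glb1, Ctsl and Ctsw.

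Other genes of the same pathways, 119 in 5 lists, were taken by role, also with earlier results of these data known. The table held 118 of them and 114 were tested. The F test called 51 of the 114 (44.7%), beside 52.0% of all tested genes. At 8 h against 0 h, 15 were higher and 23 lower (33.3% called, beside 34.4% of all tested genes), and the 38 calls became 17 without 0 h R2 and 18 without 8 h R1. At 32 h against 0 h, 21 were higher and 21 lower (36.8%, beside 40.8%), and the 42 calls became 26 without 0 h R1, 23 without 32 h R1 and 25 without 32 h R2. Equal totals gave 35 higher and 5 lower at 8 h, and 57 and 6 at 32 h, so here too the direction depended on the scaling. At 32 h against 8 h there were 21 higher and 7 lower (24.6%, beside 27.6%), 28 calls that became 15 without 8 h R1 and 12 without 32 h R2. The genes named below are among the 3 of each list with the smallest F p, and their F calls were kept in all 28 alternatives.

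Other lysosomal hydrolases and cofactors (29 tested) were lower at 4 h than at 0 h in 8 cases (27.6%) and higher in 0, beside 10.5% lower and 11.0% higher among all tested genes. Without 0 h R2 these 8 calls became 1, and without 4 h R1 they became 5. Fuca1, a fucosidase, changed from 0 h to 4 h by -0.35 ± 0.079, adjusted p = 0.00685, a call lost without 0 h R2 (adjusted p = 0.0540). At 32 h Fuca1 was higher than at 8 h (0.59 ± 0.079, adjusted p = 0.000161), in all 28 alternatives. Grn, which encodes progranulin, was lower than at 0 h at 8 h (-0.49 ± 0.072, adjusted p = 0.000187), in all 28 alternatives, and at 32 h (-0.34 ± 0.072, adjusted p = 0.00186), lost with equal totals or quantile normalization (adjusted p = 0.146 and 0.154).

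Among other membrane and sorting proteins (19 tested), M6pr, a mannose 6-phosphate receptor, was lower at 32 h than at 0 h (-0.40 ± 0.051, adjusted p = 2.53e-05). Ctns, the cystine exporter of the lysosome, was higher (0.58 ± 0.086, adjusted p = 0.000108). Both calls were kept in all 28 alternatives. Laptm4b, a lysosomal membrane protein, was lower at 4 h (-0.35 ± 0.078, adjusted p = 0.00660), lost without 0 h R2 or 4 h R1 (adjusted p = 0.0528 and 0.111). The vacuolar ATPase is the proton pump of the lysosome, and its 16 tested subunit genes gave 0 higher and 6 lower at 8 h against 0 h (37.5% called, beside 34.4% of all tested genes). With equal totals they gave 3 higher and 1 lower, and with quantile normalization 0 and 4. The 6 calls became 3 without 0 h R1, 2 without 0 h R2 and 2 without 8 h R1. From 8 h to 32 h the 3 named subunits moved in different directions. Atp6v1h fell (-0.46 ± 0.05, adjusted p = 3.1e-05), as did Atp6v0a1 (-0.33 ± 0.072, adjusted p = 0.00391), while Atp6v1f rose (0.55 ± 0.068, adjusted p = 8.04e-05), each in all 28 alternatives.

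Other autophagy machinery (34 tested) gave 11 higher and 6 lower at 32 h against 0 h (50% called), beside 20.5% higher and 20.4% lower among all tested genes. Equal totals gave 21 higher and 0 lower, and quantile normalization 13 and 2. The 17 calls became 11 without 0 h R1 and 9 without 32 h R2. Fyco1, an adaptor that moves autophagosomes along microtubules, was higher (0.63 ± 0.062, adjusted p = 2.91e-06). Pik3r4, a subunit of the Beclin 1 lipid kinase complex, was higher (0.56 ± 0.069, adjusted p = 2.17e-05), as was Atg4c, an LC3 protease (0.61 ± 0.089, adjusted p = 8.64e-05). All 3 of these calls were kept in all 28 alternatives, as were those of the relatives of Tfeb below except where a loss is named. Tfe3 (listed as Tcfe3) was lower than at 0 h at 8 h (-0.63 ± 0.055, adjusted p = 1.61e-06) and 32 h (-0.48 ± 0.055, adjusted p = 1.2e-05). At 4 h it was lower too (-0.23 ± 0.055, adjusted p = 0.0103), lost without 0 h R2 (adjusted p = 0.0722). Mitf was higher at 24 h (0.88 ± 0.16, adjusted p = 0.000506) and 32 h (0.96 ± 0.16, adjusted p = 0.000227), while its change at 4 h was 0.25 ± 0.16, adjusted p = 0.277. Fnip2, a partner of folliculin, was lower at 32 h (-0.67 ± 0.11, adjusted p = 0.000250).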

How the data were processed

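Total RNA of 18 libraries was sequenced as single-end reads, per the labels' protocols. The deposited table holds a normalized read signal: the values were found to be whole reads of a gene divided by 1 factor per library, from 0.728 to 1.16, made by the authors. The submitters' processing notes name TopHat, HTSeq, DESeq and the mm9 build; versions, annotation and counting mode are not given in the sources used here. All values became whole within 0.02 reads when multiplied back; for replicate 2 at 28 h and at 32 h the factor is close to 1, so the step is a weaker check. Since the deposited unit is not counts, limma 3.58.1 in R 4.3.3 was fitted to log2(value + 1) of all 18 libraries, with a variance trend, for genes with a mean of at least 10. Each fit had a mean per time for the F test and the 6 comparisons of 2 times, or a cosine and sine of 24 h with or without a linear term. P-values are 2-sided, and were adjusted by Benjamini-Hochberg over all 12393 tested genes. Alternatives were pseudocounts of 0.5 and 8, no filter, a mean of at least 50, equal totals, quantile normalization, no variance trend, DESeq2 1.42.0 or edgeR 4.0.16 run on those whole reads, the replicate number as a block and leaving out each library. A fold on this scale understates the change of genes with low values.

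The members and lists were chosen with earlier results of these data known. Members described with every library are up to 5 per role with the smallest F p, and other pathway genes are the 3 of each list with the smallest, of which 1 is not reported here. Samples were grouped by the time in their labels. Whether the replicate numbers pair the libraries was checked from the data: deviations of same-numbered libraries correlated in all 36 pairs of times (0.230 to 0.502). The labels give no source for that pairing. The fit was tested on simulated reads drawn independently for each library, with no replicate difference. That test cannot show how the fit behaves with the correlation above. Reads per kb used the union of GENCODE vM21 exons. Python 3.11.15 drew the figures with matplotlib 3.10.9.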

Additional observations from a re-analysis of the deposited data

How the results depend on the processing

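Counts of called members moved as follows, given without the shares of all tested genes in the same settings. At 4 h against 0 h the 4 calls became 2 with quantile normalization and 12 with the replicate block. At 8 h the 15 became 5 with equal totals and 5 with quantile normalization, and at 16 h the 15 became 8 with quantile normalization. For the 24 h rhythm, limma called 1 member (5 at an unadjusted p under 0.05), edgeR 1 and DESeq2 3. Limma called 0 with no filter (6 unadjusted), 0 with equal totals (4 unadjusted) and 0 without both 0 h libraries (4 unadjusted), 2 with quantile normalization and 6 with a linear term. Without 1 library the count ranged from 12 to 22 for the F test, 1 to 6 at 4 h, 3 to 15 at 8 h, 8 to 16 at 16 h, 8 to 15 at 24 h, 8 to 13 at 32 h, 3 to 10 at 32 h against 8 h, 0 to 1 for the rhythm and 13 to 19 for the drift; a lone library at a time was then assumed to vary like the others. Where counts moved with the scaling the median of all genes moved with it; the cause was not tested otherwise.

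These log2 values changed sign. With equal totals, Ctsb became 0.0051 at 16 h, Becn1 0.00055 at 16 h, Tpp1 0.049 at 24 h and Ctsd 0.015 at 32 h, and the drift became 0.018 for Psap and 0.049 for Ctsd. With quantile normalization, Psap became 0.0053 at 8 h and 0.020 at 32 h, Ctsd 0.043 at 32 h, and the drift 0.038 for Psap and 0.057 for Ctsd. The replicate block ended no call of a member, and the paired fit's added calls stand beside Map1lc3b. Low reads limit Tfeb, Ctsw and Ctsf, and 2 libraries per time limit every comparison.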
